A study of Mus musculus with 9 samples.

Results

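The genes described here are 9 genes of the mouse: the actin-binding LIM genes Ablim1 and Ablim3, the nectin genes Pvrl1 (now Nectin1) and Pvrl3 (now Nectin3), the afadin gene Mllt4 (now Afdn), the N-cadherin gene Cdh2, and the catenin genes Ctnnb1, Ctnna2 and Ctnnd2. They were chosen by name from the junction they belong to, and matched to the Ensembl identifiers of the count files by current or older symbol. The choice was made with earlier results of these data known. All 9 of them, of 37620 genes counted, passed the minimum level for testing, as did 15069 genes in all.

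The RNA was ribosome-associated RNA of parvalbumin-expressing inhibitory neurons (PV INs) of the hippocampal CA3/CA2 region. The mice were PV-Cre; Rpl22HA/HA animals aged 2 months, in which Cre expressed under PV control turns on an HA-tagged ribosomal protein, so that the tag marks every cell that has used this Cre. A lentivirus carrying a non-target shRNA (shNT, 5 samples) or an shRNA against Ablim3 (shRNA, 4 samples) was injected into the dentate gyrus (DG), and CA3/CA2 tissue was collected 2 weeks later. All samples of both groups carried the same Cre and tag and received a virus, and each was a pool of 6 mice, both males and females. There was no group without a virus, and no input RNA from before the immunoprecipitation was analysed here. Because each sample pools its mice, the spread between samples is that between pools, and no animal can be seen on its own. The comparison asks what changed in CA3/CA2 PV INs when Ablim3 was targeted in the granule cells of the DG, whose mossy fiber axons reach CA3/CA2.

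Puncta adherentia are adhesive junctions that lie next to synapses and hold the 2 sides together. In the hippocampus they are best known at mossy fiber terminals, where nectins on the axon bind nectins on the dendrite, with Pvrl1 on the axonal side and Pvrl3 on the dendritic side. Afadin ties the nectins to actin, and the cadherin-catenin complex is assembled beside them. In that complex Cdh2 binds its partner across the cleft, Ctnnb1 and Ctnnd2 bind the tail of Cdh2, and Ctnna2 links the complex to actin. Ablim proteins carry LIM domains and a villin headpiece that binds actin filaments, and Ablim3 is found at these junctions in mossy fiber terminals.

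Between 18281719 and 34578837 reads were counted on genes per sample. PV IN markers were present in every sample, with a summed level of 5068 to 8343 CPM (counts scaled to library size) in shNT, 5170 to 7399 in shRNA replicates 1 to 3 and 3029 in shRNA replicate 4, and Pvalb itself at 678 to 1375 CPM in shNT, 538.7 to 704.6 in shRNA replicates 1 to 3 and 310.0 in shRNA replicate 4. Of the 12 PV IN markers, 12 had a negative log2 fold change, against 6337 of the 15069 genes tested. Of the 12, 0 were called, where 0.0133% of all genes were called lower. In the edgeR quasi-likelihood test 2 were lower at an unadjusted p under 0.05, against 13.4% of all genes. They were Pvalb (log2 fold change -0.92) and Cox6a2 (-0.91), with FDR = 0.0110 and 0.0102 in DESeq2. Markers of other cells were also present, with none at 0 in any sample. Summed astrocyte markers came to 1071 to 1512 CPM in shNT and 1410 to 1661 in shRNA replicates 1 to 3, against 5459 in shRNA replicate 4. Of the 10, 8 had an unadjusted p under 0.05 on the higher side, against 20.7% of all genes. Summed endothelial markers came to 103 to 324 CPM in shNT and 66.8 to 145.8 in shRNA replicates 1 to 3, against 816 in shRNA replicate 4. The sums ran from 764 to 2384 for oligodendrocyte markers in shNT (1451 to 2699 in shRNA replicates 1 to 3 and 3029 in replicate 4), from 50.7 to 120 for microglial markers (87.0 to 99.3 in shRNA), from 102 to 162 for DG granule cell markers (172 to 187.5 in shRNA replicates 1 to 3 and 209.6 in replicate 4), and from 545 to 903 for CA3/CA2 pyramidal markers (944 to 1118 in shRNA replicates 1 to 3 and 845.5 in replicate 4). The share of uniquely aligned reads outside annotated exons was 9.76% to 18.6% in shNT, 12.4% to 19.8% in shRNA replicates 1 to 3, and 27.2% in shRNA replicate 4. Results on the 9 genes that rest on shRNA replicate 4 are therefore given with and without it. In such pooled immunoprecipitates, changes in cell number, in RNA per cell and in the purity of the immunoprecipitation cannot be told apart.

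Pvrl3 had the largest change of the 9. It was 2.02-fold higher in shRNA than in shNT, and it was the 1 gene of the 9 that was called differentially expressed, with 0 called lower. A call here needs a Benjamini-Hochberg FDR under 0.05 in edgeR's quasi-likelihood test and a change of at least 1.5-fold, on counts normalized by the TMM method. Over all genes tested, 1.74% were called higher and 0.0133% lower. Before adjustment, 2 of the 9 (Pvrl3 and Cdh2) had p under 0.05 on the higher side and 0 on the lower side, against 20.7% and 13.4% of all genes. The groups did not overlap for 1 of the 9 (Pvrl3), against 8.97% of all genes that were higher without overlap and 6.68% that were lower. The median log2 fold change of the 9 was 0.35, with 8 positive and 1 negative, and that of all genes tested was 0.11. The members are long genes, with a median length of 145.6 kb against 22.8 kb for all genes tested. The counts before adjustment and without overlap lie near the shares of all genes, and the 1 call rests on Pvrl3 alone.

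**Figure D1:**
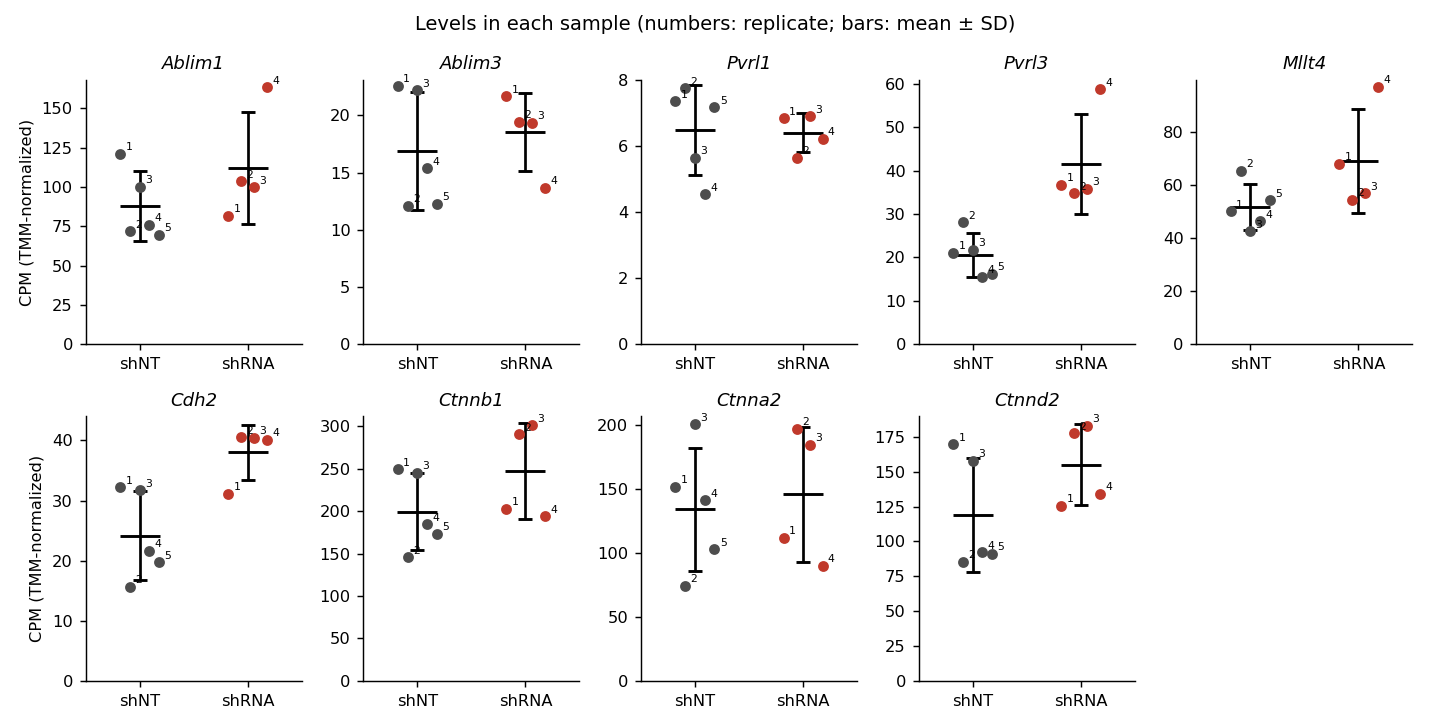
Level of each of the 9 genes in each sample, in CPM after TMM normalization, on axes that start at 0. Each point is 1 sample with its replicate number beside it, the long bar is the group mean and the short bars mark 1 SD, with 5 shNT samples in grey and 4 shRNA samples in red. The Pvrl3 points do not overlap, at 15.6 to 28.1 CPM in shNT and 34.8 to 58.8 in shRNA, whereas every other panel shows groups that overlap.

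Ablim3 was the target of the shRNA in the DG, and in PV INs it was not called in either direction. Ablim3 (ENSMUSG00000032735, chr18:61959049-62071506 of mm9, minus strand) was at 22.6, 12.1, 22.2, 15.4 and 12.3 CPM in shNT replicates 1 to 5 and at 21.7, 19.5, 19.4 and 13.7 CPM in shRNA replicates 1 to 4. All 4 shRNA samples lay within the shNT range, with shRNA replicate 4 among its low samples. The means were 16.9 ± 5.16 (SD, n = 5) and 18.5 ± 3.42 (SD, n = 4), a log2 fold change of 0.13 ± 0.23 (SE; 95% interval -0.37 to 0.64; edgeR quasi-likelihood FDR = 0.701). The interval includes falls as well as rises. The sign varied, at -0.044 without shNT replicate 5, -0.011 without shRNA replicate 1, -0.15 with the trend of each sample with gene length removed and -0.022 with that of exon length removed. The virus was placed in the DG, so the level in CA3/CA2 PV INs checks neither the knockdown nor the sample labels. The paper checked the knockdown separately, and reports lower Ablim3 in the DG by qRT-PCR. At 264 to 652 reads per sample, counting error was small beside the spread between samples.

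Ablim1 was not called, and its value depended on 1 sample. Ablim1 (ENSMUSG00000025085, chr19:57107223-57389409, minus strand), a widely expressed member of the family, was at 121, 71.7, 100.1, 76.1 and 69.6 CPM in shNT and at 81.7, 103.6, 99.85 and 163 CPM in shRNA. The first 3 shRNA samples lay within the shNT range and shRNA replicate 4 lay above all others. The log2 fold change was 0.35 ± 0.23 (SE; 95% interval -0.15 to 0.86; edgeR quasi-likelihood FDR = 0.284). Without shRNA replicate 4 it was 0.11. It turned to -0.067 within the larger set of sample names, to -0.042 with the gene length trend removed and to -0.16 with the exon length trend removed.

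The Pvrl3 values came to 21.1, 28.1, 21.75, 15.6 and 16.25 CPM in shNT and 36.7, 34.8, 35.9 and 58.8 CPM in shRNA. Pvrl3 (ENSMUSG00000022656, chr16:46387819-46498638, minus strand) encodes the nectin of the dendritic side. Each shRNA sample lay above each shNT sample, and shRNA replicate 4 lay far above the other 3 of its group. The means were 20.6 ± 5.06 (SD, n = 5) and 41.55 ± 11.5 (SD, n = 4). Its log2 fold change was 1.01 ± 0.22 (SE; 95% interval 0.54 to 1.49; edgeR quasi-likelihood FDR = 0.0439), and the exact two-sided permutation test over all assignments of the samples gave p = 0.0159. Without shRNA replicate 4 the log2 fold change was 0.77 and the FDR was 0.0929, so the call was lost.

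The Pvrl3 call lay close to its threshold. It was kept in 10 of 25 alternative settings, and its direction was the same in 25. Leaving out 1 sample at a time kept the call without shNT replicate 1 (log2 fold change 1.02), shNT replicate 2 (1.15) or shRNA replicate 2 (1.09). It was lost without shNT replicate 3 (0.95, FDR = 0.0744), shNT replicate 4 (0.84, FDR = 0.155) or shNT replicate 5 (0.84, FDR = 0.169). It was also lost without shRNA replicate 1 (0.98, FDR = 0.0860) or shRNA replicate 3 (0.98, FDR = 0.121). In each of the fits just named that lost it, 0 of all genes tested were called. The call was also lost without shRNA replicate 4 (0.77, FDR = 0.0929), where 142 genes were called. It was lost as well with DESeq2 size factors in edgeR (200 genes called) and with the replicate number as a block (29 genes called). Whether the sample names mark batches is not stated, but they form a set of 6 (shNT replicates 1 to 3 and shRNA replicates 1 to 3) and a set of 3 (shNT replicates 4 and 5 and shRNA replicate 4). Within the larger set the values were 21.1, 28.1 and 21.75 CPM against 36.7, 34.8 and 35.9 CPM, a log2 fold change of 0.56 (edgeR quasi-likelihood FDR = 0.358). Within the smaller set they were 15.6 and 16.25 CPM against 58.8 CPM. The value fell to 0.68 with the gene length trend removed, to 0.48 with the exon length trend removed and to 0.69 with each sample's share of reads outside exons added as a covariate, and it was not called in any of the 3. The sample with the highest Pvrl3, shRNA replicate 4, was also the one with 5459 CPM of astrocyte markers, and the summed DG granule cell markers did not overlap between the groups either. Of the 9 CA3/CA2 pyramidal markers, 5 were higher without overlap (8.97% of all genes) and 1 was called (1.74% of all genes). The called marker was the kainate receptor gene Grik4 (9.13 to 16.4 CPM in shNT and 24.8 to 32.3 in shRNA, 2.25-fold, edgeR quasi-likelihood FDR = 0.0403). Of 7 oligodendrocyte markers, 6 had an unadjusted p under 0.05 on the higher side, against 20.7% of all genes. The part of these other cells in the Pvrl3 difference was not tested.

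Pvrl1, the nectin of the axonal side, was low and was not called. Pvrl1 (ENSMUSG00000032012, chr9:43552659-43615537, plus strand) was at 7.36, 7.76, 5.66, 4.54 and 7.18 CPM in shNT and at 6.85, 5.65, 6.91 and 6.22 CPM in shRNA. The shRNA values all lay within the shNT range. The difference came to a log2 fold change of -0.022 ± 0.20 (SE; 95% interval -0.47 to 0.42; edgeR quasi-likelihood FDR = 0.948). The lowest sample held 90 reads on Pvrl1. Its sign varied between settings, from -0.28 with the gene length trend removed to 0.17 with limma voom and sample quality weights.

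Mllt4, which encodes the afadin that binds the tails of nectins and actin, was higher on average in shRNA without passing the test. Mllt4 (ENSMUSG00000068036, chr17:13897546-14043157, plus strand) was at 50.1, 65.45, 42.6, 46.5 and 54.4 CPM in shNT and at 68.2, 54.4, 57.0 and 97.1 CPM in shRNA. Replicates 2 and 3 of shRNA lay inside the shNT range and replicates 1 and 4 above it, with replicate 4 again the highest of all. The log2 fold change was 0.42 ± 0.19 (SE; 95% interval -0.0049 to 0.84; edgeR quasi-likelihood FDR = 0.150). It was 0.18 without shRNA replicate 4 and -0.074 with the exon length trend removed. Its exons share 2.16% of their length with the antisense gene Tcte2, and reads of the pair cannot be told apart in counts made without strand.

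Cdh2 had the second largest value of the 9, and the tests differed on it. Cdh2 (ENSMUSG00000024304, chr18:16747386-16967755, minus strand) was at 32.2, 15.65, 31.7, 21.6 and 19.7 CPM in shNT and at 31.2, 40.55, 40.4 and 40.1 CPM in shRNA. The shRNA samples lay above the shNT samples except for shRNA replicate 1, which was below shNT replicates 1 and 3. The means were 24.2 ± 7.42 (SD, n = 5) and 38.05 ± 4.59 (SD, n = 4). This gave a log2 fold change of 0.65 ± 0.22 (SE; 95% interval 0.18 to 1.13; edgeR quasi-likelihood FDR = 0.0762), with p = 0.0476 in the exact two-sided permutation test. Without shRNA replicate 4 it was 0.62, and without shNT replicate 1 it was 0.78 and called (FDR = 0.0486).

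Cdh2 was called by the tools that called more genes throughout. The FDR of Cdh2 was 0.0380 in edgeR's likelihood ratio test, 0.0408 in DESeq2 and 0.00378 in limma voom. Each of these tools also called Pvrl3, and limma voom also called Ctnnd2, so that 2, 2 and 3 of the 9 genes were called higher. Of all genes, these tools called 11.2%, 10.2% and 15.3% higher. With the gene length trend removed the log2 fold change of Cdh2 was 0.29, and with the exon length trend removed it was also 0.29.

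**Figure D2:**
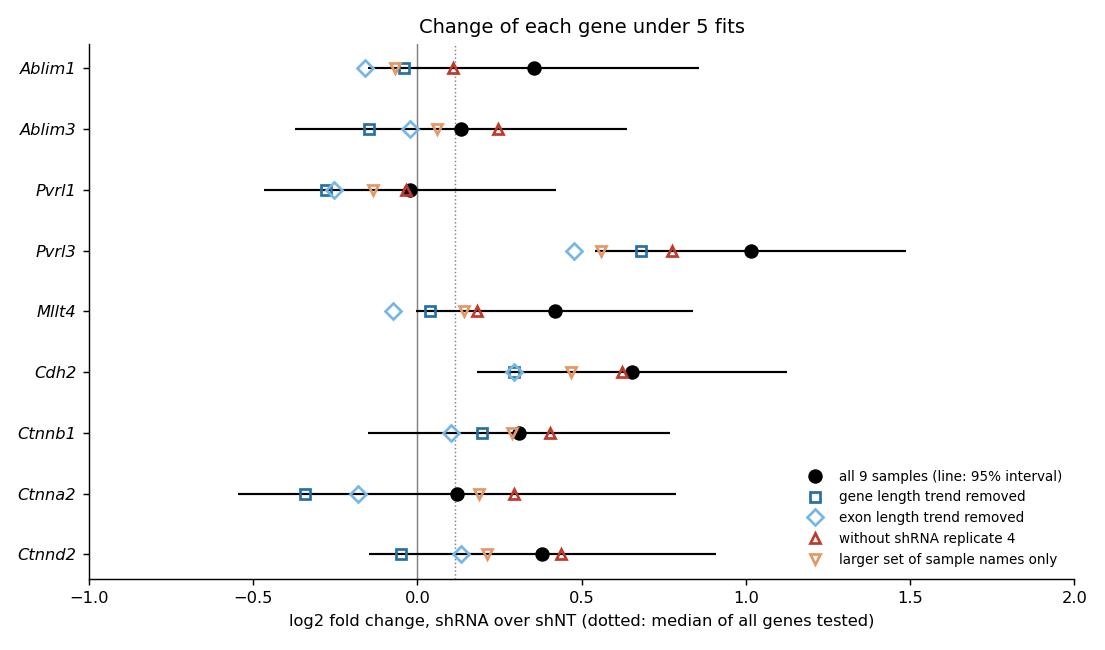
Log2 fold change of each gene, shRNA over shNT, in the fit of all 9 samples (black, with its 95% interval) and in 4 alternatives (open symbols). The dotted line marks the median of all genes tested (0.11). The interval of Pvrl3 (0.54 to 1.49) and that of Cdh2 (0.18 to 1.13) lie above 0, and the values with the length trends removed lie to the left of the black points for each gene shown.

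Ctnnb1, which encodes beta-catenin, was the most abundant of the 9 and was not called. Ctnnb1 (ENSMUSG00000006932, chr9:120838334-120869625, plus strand) was at 249, 146, 245, 184.5 and 173 CPM in shNT and at 203, 290.5, 301 and 194 CPM in shRNA. The groups overlapped, with shRNA replicates 2 and 3 above every shNT sample and the other 2 inside the shNT range. Its log2 fold change was 0.31 ± 0.21 (SE; 95% interval -0.15 to 0.77; edgeR quasi-likelihood FDR = 0.305). It ran from 0.13 without shRNA replicate 3 to 0.40 without shRNA replicate 4, and was 0.10 with the exon length trend removed. In limma voom it was 0.54 (FDR = 0.0102), below the minimum change for a call. Its exons share 4.71% of their length with the antisense gene Ulk4.

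Ctnna2, the neuronal alpha-catenin, spans 1098 kb and had the largest SE of the 9. Ctnna2 (ENSMUSG00000063063, chr6:76831631-77929693, minus strand) was at 152, 74.4, 201, 141 and 103 CPM in shNT and at 112, 197, 185 and 90.25 CPM in shRNA. Both groups held high and low samples, and all 4 shRNA values lay within the shNT range. The difference came to a log2 fold change of 0.12 ± 0.30 (SE; 95% interval -0.55 to 0.79; edgeR quasi-likelihood FDR = 0.794). The sign turned when shNT replicate 2 (-0.031), shNT replicate 5 (-0.031), shRNA replicate 2 (-0.059) or shRNA replicate 3 (-0.078) was left out, and the value was -0.34 with the gene length trend removed. It was higher, at 0.29 without shRNA replicate 4 and 0.36 in limma voom, without being called.

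Ctnnd2, the neuronal delta-catenin, spans 857 kb. Ctnnd2 (ENSMUSG00000022240, chr15:30102348-30959066, plus strand) was at 169.5, 85.2, 158, 92.3 and 91.0 CPM in shNT and at 125.7, 177.5, 183 and 134 CPM in shRNA. The shNT samples fell into a high pair (replicates 1 and 3) and a low trio, and the shRNA samples lay above the trio. The log2 fold change was 0.38 ± 0.24 (SE; 95% interval -0.15 to 0.91; edgeR quasi-likelihood FDR = 0.274). It was -0.052 with the gene length trend removed, and 0.67 and called in limma voom (FDR = 0.0103). Leaving out 1 sample gave 0.21 (without shRNA replicate 3) to 0.54 (without shNT replicate 1).

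The share of reads outside exons moved most of these values when it was added as a covariate. In that fit 5 of the 9 had an unadjusted p under 0.05 on the higher side, against 19.2% of all genes, and 0 were called. These were Pvrl3 (log2 fold change 0.69), Cdh2 (0.82), Ctnnb1 (0.59), Ctnna2 (0.63) and Ctnnd2 (0.63), so that the 3 catenins and Cdh2 lay above their values without the covariate and Pvrl3 below. The others were at 0.38 for Ablim3, 0.20 for Ablim1, 0.072 for Mllt4 and -0.10 for Pvrl1.

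The samples did not order these genes alike. Among shNT samples, replicates 1 and 3 had the 2 highest levels of Ablim1, Ablim3, Cdh2, Ctnnb1, Ctnna2 and Ctnnd2, while replicate 2 had the highest level of Pvrl1, Pvrl3 and Mllt4. Among shRNA samples, replicate 4 was the highest for Ablim1, Pvrl3 and Mllt4 and the lowest for Ablim3, Ctnnb1 and Ctnna2.

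Levels were compared between genes per kb of exon. In shNT, Ctnnb1 stood first at 39.1 ± 8.95 CPM per kb (SD, n = 5), above 88.0% of all genes tested. Ctnnd2 (20.1 ± 6.92) and Ctnna2 (19.3 ± 6.95) followed and could not be ordered, since their ranges overlapped. Ablim1 (7.33 ± 1.86), Mllt4 (5.06 ± 0.860), Ablim3 (3.71 ± 1.13), Cdh2 (3.00 ± 0.920), Pvrl3 (1.61 ± 0.397) and Pvrl1 (1.29 ± 0.268, above 27.2% of genes) came after them. Of the 8 steps in this order in shNT, only that from Ctnna2 to Ablim1 separated the samples fully.

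In shRNA 1 pair of neighbours in the order of levels per kb changed places, Ablim3 with Cdh2. Cdh2 was at 4.72 ± 0.569 CPM per kb (SD, n = 4) and above Ablim3 (4.07 ± 0.750) in 3 of the 4 samples, whereas in shNT Ablim3 had been above Cdh2 in 5 of 5. Pvrl3 was at 3.26 ± 0.905 CPM per kb against 1.27 ± 0.117 for Pvrl1, with no overlap. Mllt4 was at 6.76 ± 1.91 and Ctnnb1 at 48.5 ± 11.1 CPM per kb.

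**Figure D3:**
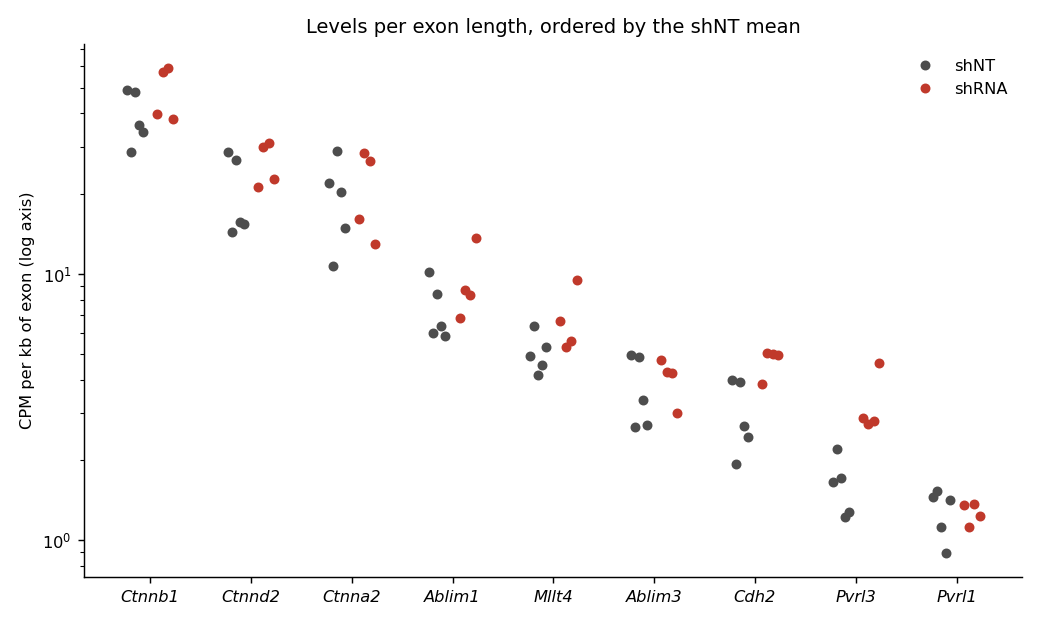
Level of each gene per kb of exon in each sample, on a log axis, ordered by the shNT mean. Grey points are the 5 shNT samples and red points the 4 shRNA samples. By the shNT mean Ctnnb1 lies highest and Pvrl3 and Pvrl1 lowest of the genes shown, and most neighbours overlap.

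Ratios between 2 genes of the same sample need no scaling between samples, and 7 of them were compared by exact two-sided permutation tests with Benjamini-Hochberg adjustment over the 7, of which 5 are given. Each is a log2 ratio of counts per exon length. Pvrl1 over Pvrl3 was -0.19, -0.52, -0.61, -0.45 and 0.16 in shNT and -1.09, -1.29, -1.04 and -1.91 in shRNA. The groups did not overlap, and the difference of the means was -1.01 (exact permutation p = 0.00794, adjusted p = 0.0278). With Pvrl1 at a log2 fold change of -0.022 and Pvrl3 at 1.01, this is largely the Pvrl3 difference again. No share of other gene pairs is set beside these ratios. In 4 of 5 shNT samples and in 4 of 4 shRNA samples Pvrl3 was the more abundant of these 2 nectins per kb. The nectins Pvrl2 and Pvrl4 had higher means than both, at 9.84 and 8.19 CPM per kb in shNT and 7.46 and 6.19 in shRNA.

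Ctnnb1 over Cdh2 also differed without overlap. It was 3.61, 3.88, 3.61, 3.75 and 3.80 in shNT and 3.36, 3.50, 3.56 and 2.94 in shRNA. The difference was -0.39 (exact permutation p = 0.00794, adjusted p = 0.0278), the smallest p that 4 of 9 samples allow, as for the nectins. There were thus fewer beta-catenin reads for each Cdh2 read in every shRNA sample, with shRNA replicate 4 the lowest. Groups without overlap cannot come to overlap when a sample is left out. In the 9 fits that left out 1 sample, the differences were -1.11 to -0.82 for the nectins and -0.46 to -0.26 for Ctnnb1 over Cdh2. With fewer samples the adjusted p passed the threshold in 1 of these fits, that without shRNA replicate 2, and reached 0.125 at most, without shRNA replicate 4. In the larger set of sample names the differences were -0.70 and -0.23, where 3 against 3 samples cannot go below p = 0.1 in an exact permutation test. Gene length differs within each pair (62.9 and 110.8 kb for Pvrl1 and Pvrl3, 31.3 and 220.4 kb for Ctnnb1 and Cdh2). Taken from the fitted log2 fold changes, the nectin difference was -1.04, and -0.96 with the gene length trend removed, -0.73 with the exon length trend removed and -0.80 with the covariate for reads outside exons. That of Ctnnb1 and Cdh2 went from -0.34 to -0.097, -0.19 and -0.22. These differences of fitted values have no test of their own.

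The other 3 ratios given did not pass the adjusted threshold. Ctnna2 over Cdh2 differed by -0.58 (exact permutation p = 0.0238, adjusted p = 0.0556) and Ctnnd2 over Cdh2 by -0.28 (exact permutation p = 0.0476, adjusted p = 0.0833), both with overlap. Ablim1 over Ablim3 differed by 0.17 (exact permutation p = 0.746, adjusted p = 0.746). Its sign rested on shRNA replicate 4, with a difference of -0.16 without it.

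**Figure D4:**
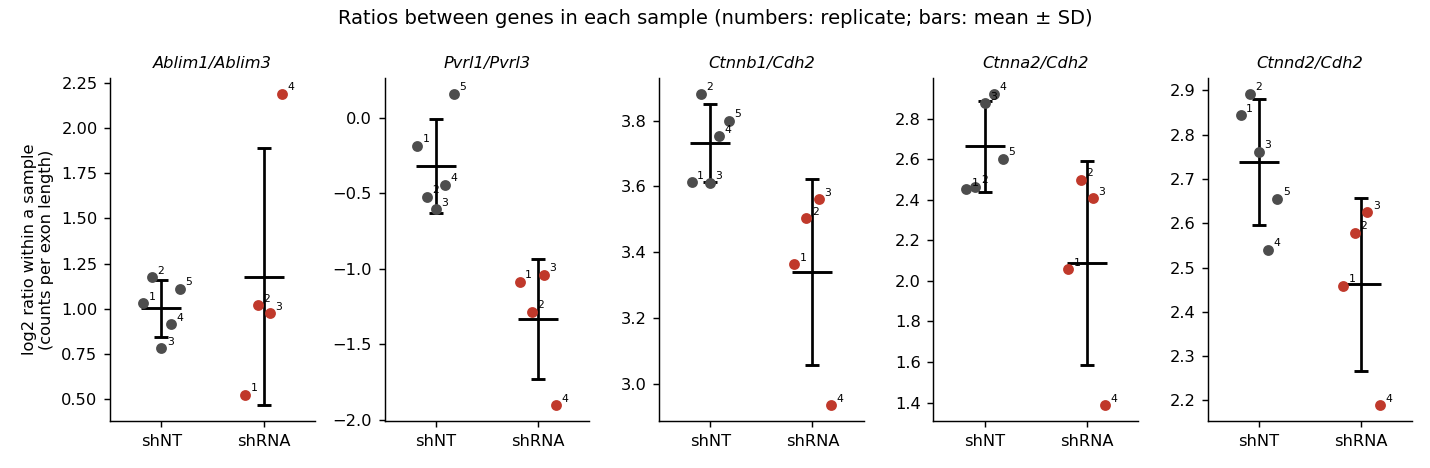
Log2 ratio of counts per exon length between 2 genes in each sample, with replicate numbers, group mean and SD. The 5 shNT points are grey and the 4 shRNA points red. Pvrl1/Pvrl3 (difference -1.01) and Ctnnb1/Cdh2 (difference -0.39) are the 2 panels without overlap, and shRNA replicate 4 is the point farthest from the rest of its group in each of the 5 panels.

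Other genes of the same pathways were taken from 5 lists, drawn up with earlier results of these data known. Their counts therefore describe these data and are no test of the lists. Without the 9 genes, the lists held 54 genes, of which 49 were tested, 5 were called higher (1.74% of all genes) and 0 lower. Before adjustment, 22 had p under 0.05 on the higher side and 4 on the lower side, against 20.7% and 13.4% of all genes. The median log2 fold change of the 49 was 0.43, against 0.11 for all genes. The remaining genes were below the minimum level (Avil, Abra, Cdh1 and Cdh3) or had more than 1 identifier (Magi2), and have no values here. The 5 were Svil, Cdh8, Lima1, Actn1 and Tjp1. These calls depended on the samples in the fit, as did those of all genes. Leaving out any of replicates 3 to 5 of shNT, or replicate 1 or 3 of shRNA, gave 0 calls among the 49 genes and 0 among all genes. The 49 gave 3 calls when shRNA replicate 4 was left out, 4 when shNT replicate 2 or shRNA replicate 2 was and 14 when shNT replicate 1 was.

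Among the Ablim and villin headpiece genes, 1 of 6 tested was called higher, against 1.74% of all genes. Svil, which encodes the actin and myosin binding supervillin, was at 11.8, 7.48, 3.16, 2.07 and 2.04 CPM in shNT and 25.9, 23.9, 34.4 and 16.55 CPM in shRNA. All shRNA samples lay above all shNT samples. Its log2 fold change was 2.24 ± 0.49 (SE; edgeR quasi-likelihood FDR = 0.0481). The median of the list was 0.29 with Ablim1 and Ablim3, and 1.24 over the 4 genes tested without them. Of these, Vil1 and Vill averaged under 1 CPM in both groups.

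Of the 12 nectin, nectin-like and afadin partner genes, 1 was called higher, Pvrl3, against 1.74% of all genes. The other nectins, Pvrl2 and Pvrl4, were both lower in shRNA than in shNT without being called. Their log2 fold changes were -0.40 and -0.40 (unadjusted p = 0.0368 and 0.0392 in the edgeR test). The nectin-like gene Pvr was at 0.86 and was not called either (FDR = 0.0704). Lmo7, a further afadin partner, ran from 17.1 to 206 CPM in shNT and from 196 to 647 CPM in shRNA, a log2 fold change of 2.40 ± 0.68 (SE; FDR = 0.0651). The median of the list was 0.19, with 7 positive and 5 negative. Without Pvrl1, Pvrl3 and Mllt4 it was 0.005, with 5 positive and 4 negative.

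Of 17 cadherins tested, 1 was called higher, Cdh8, against 1.74% of all genes. Cdh8, a type II cadherin of neurons, was at 23.2, 20.8, 25.2, 18.2 and 16.1 CPM in shNT and 36.1, 29.7, 34.1 and 37.1 CPM in shRNA. The groups did not overlap, and shRNA replicate 4 did not stand apart from the rest of its group. Its log2 fold change was 0.73 ± 0.16 (SE; edgeR quasi-likelihood FDR = 0.0443). Cdh8 was at 0.32 with the gene length trend removed, at 0.37 with the exon length trend removed and at 0.67 without shRNA replicate 4, and was not called in any of the 3. Of the 17 cadherins, 14 were positive and 3 negative, with a median of 0.35. Without Cdh2 the median was 0.33.

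None of the 11 catenin genes was called. At an unadjusted p under 0.05 in edgeR's quasi-likelihood test, 4 were higher and 1 lower, against 20.7% and 13.4% of all genes. The median was 0.50, and it was 0.58 without Ctnnb1, Ctnna2 and Ctnnd2. Ctnnal1, which encodes alpha-catulin, and Jup, which encodes plakoglobin, had the largest values, with log2 fold changes of 1.27 ± 0.43 (FDR = 0.0802) and 0.95 ± 0.32 (FDR = 0.0791), and both were highest in shRNA replicate 4. Without that sample they were at 0.75 and 0.52. The smallest were those of Ctnnbip1, an inhibitor of the binding of beta-catenin to its nuclear partners, at -0.58 ± 0.17 (FDR = 0.0655), and of Pkp4, a relative of delta-catenin, at 0.10 ± 0.14 (FDR = 0.609). Ctnnbip1 was at 57.5 to 96.3 CPM in shNT and 46.1 to 55.1 CPM in shRNA, without overlap. Arvcf, another relative of delta-catenin, was at 21.7 to 34.2 CPM in shNT and 38.3 to 49.0 CPM in shRNA, also without overlap (0.58 ± 0.17, FDR = 0.0654).

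The proteins that link junctions to actin gave the largest values, with 3 of 12 genes called higher, against 1.74% of all genes. Lima1, a LIM protein that binds actin and the alpha-catenin complex, was at 30.3, 9.59, 10.7, 7.11 and 5.49 CPM in shNT and 170, 93.35, 154 and 34.3 CPM in shRNA (log2 fold change 3.16 ± 0.55; edgeR quasi-likelihood FDR = 0.0403). Actn1, an alpha-actinin, was at 117.5, 26.1, 34.95, 13.7 and 16.2 CPM in shNT and 444, 372, 621.5 and 97.9 CPM in shRNA (3.20 ± 0.68, FDR = 0.0433). Tjp1, which encodes the scaffold ZO-1, was at 70.4, 38.6, 27.1, 16.0 and 15.9 CPM in shNT and 169, 127, 196 and 90.6 CPM in shRNA (2.12 ± 0.42, FDR = 0.0414). In these 3 genes shNT replicate 1 was the highest of its group and shRNA replicate 4 the lowest of its group, whereas shRNA replicate 4 was the highest for Pvrl3. The groups overlapped for Actn1, where shNT replicate 1 lay above shRNA replicate 4. Actn4 (3.20 ± 0.77, FDR = 0.0544) and Plekha7, which is recruited to cadherin junctions (1.03 ± 0.24, FDR = 0.0503), missed the threshold. Evl, an actin regulator of the Ena/VASP family, was lower without overlap, at 116 to 148 CPM against 72.9 to 114.5 CPM (-0.35 ± 0.16, FDR = 0.145). The median of the list was 0.89.

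**Figure D5:**
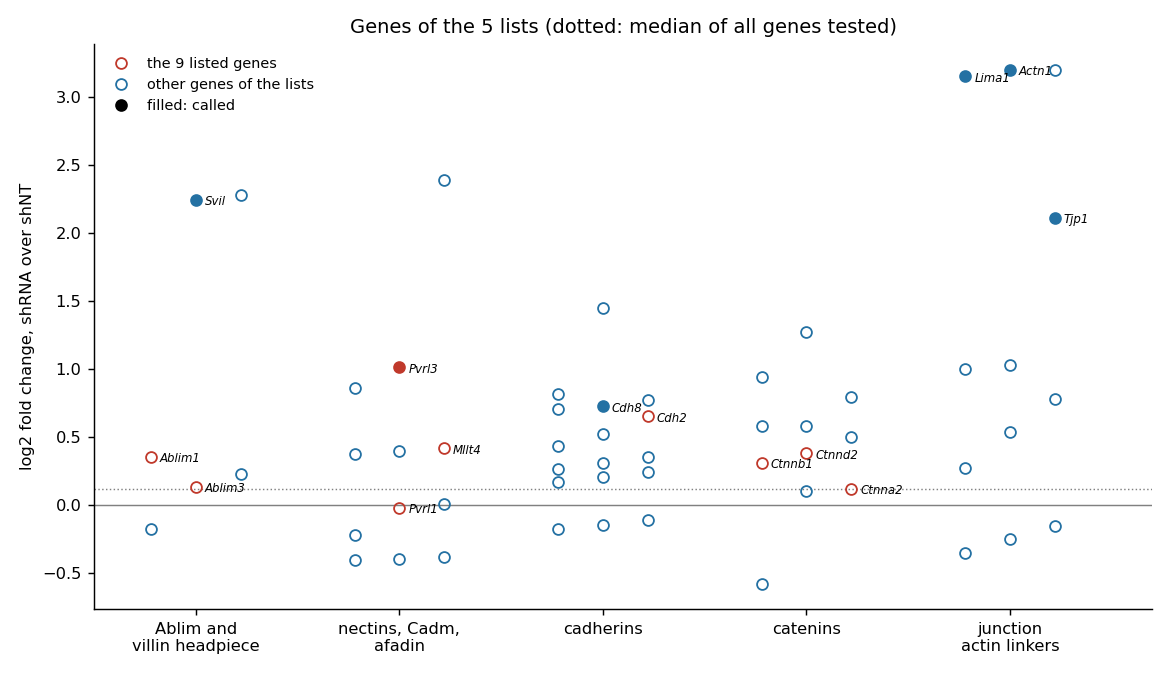
Log2 fold change of each tested gene of the 5 lists, shRNA over shNT, with the 9 genes in red, other genes in blue and called genes filled. The dotted line is the median of all genes tested (0.11). The filled points are Svil, Pvrl3, Cdh8, Lima1, Actn1 and Tjp1, all above 0.

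For Ablim1 and Ablim3, the genes with the most similar pattern were sought among 9495 genes with a mean of at least 10 CPM, by Pearson correlation of log2 CPM over the 9 samples, which share their groups, depths and cell makeup. For Ablim1 they were Twsg1 (r = 0.98), Suz12 (0.98), Esyt2 (0.97), Tmem170b (0.96) and Adam10 (0.95). For Ablim3 they were 1300018I17Rik (r = 0.97), Lmln (0.96), Zdhhc8 (0.95), Osbpl6 (0.95) and Stx17 (0.94). Ablim1 and Ablim3 had r = 0.29 with each other, while Ablim3 had r = 0.79 with Ctnnd2, 0.77 with Ctnnb1 and -0.41 with Mllt4. Cdh2 was the member nearest to Ablim1 (r = 0.78).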

How the data were processed

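The authors isolated HA-tagged ribosomes, made libraries with the SMARTer v4 kit, aligned reads with STAR to the mm9 transcriptome, counted them per gene with HTSeq 0.6.0 without strand, and deposited raw counts for each sample. The annotation they counted on is not given in the sources used here, so positions and lengths come from GENCODE vM1 of the same build, which names 37205 of 37620 identifiers. The 5 summary lines of each file were left out.

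A gene entered the tests if 1 or more samples reached 1 CPM (15069 genes, 22551 removed). Counts were compared in R 4.3.3 with edgeR 4.0.16 (TMM, quasi-likelihood test in its version 3 form, which is the default of this release, group as the only term), since the test used within edgeR is not stated. The biological coefficient of variation was 0.303. Alternatives used edgeR's likelihood ratio and exact tests, DESeq2 1.42.0, limma 3.58.1 (voom with quality weights), other normalizations and filters, length-trend offsets (lowess, span 0.5), the share of reads outside exons, the sets of sample names, the replicate number as a block, and each sample left out. The version 4 form of the quasi-likelihood test and the length and covariate values of the ratios were added after seeing the data. The scripts were tested on simulated counts.

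Log2 levels use a prior count of 2. Levels per kb divide CPM by merged exon length. Nothing says whether samples of a group came from separate rounds of injection, so p-values measure the spread between these pools. The members and lists were chosen with earlier results of these data known. Genes named are the members, the called genes of each list or else its 2 largest and 2 smallest changes among genes averaging at least 5 CPM, and 5 genes most like Ablim1 and Ablim3. From the lists, Svil, Cdh8, Lima1, Actn1, Tjp1, Ctnnal1, Jup, Ctnnbip1 and Pkp4 follow that rule. Lmo7, Pvr, Pvrl2, Pvrl4, Arvcf, Actn4, Plekha7 and Evl were added after their values were seen. Some genes and ratios are not reported here.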

Additional observations from a re-analysis of the deposited data

Results flagged for a closer look

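In 2 of 28 groups of values searched, 1 sample lay far from the others of its group by Dixon's criterion, which chance meets in about 1 in 20. Pvrl3 was at 58.8 CPM in shRNA replicate 4, against 34.8 to 36.7 CPM in the other 3 shRNA samples. Cdh2 was at 31.2 CPM in shRNA replicate 1, against 40.1 to 40.55 CPM in the others. Of these samples, shRNA replicate 4 also had the highest summed astrocyte markers (5459 CPM) and the highest share of reads outside exons (27.2%). With that share as a covariate the log2 fold change of Pvrl3 was 0.69 in place of 1.01 and was not called. The part of the astrocyte signal was not tested.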

How the results depend on the processing

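Besides 1 of the 9 genes called in the edgeR quasi-likelihood test, 2 were called by the likelihood ratio test, 2 by the exact test, 2 by DESeq2 and 3 by limma voom (5 at an unadjusted p under 0.05, against 2). These tools called 2230, 2189, 2365 and 2919 genes in all, against 264, and 14, 14, 17 and 17 other genes of the 5 lists, against 5. The version 4 form of the quasi-likelihood test called 397 genes and testing without a filter on low counts 515 (8 of the lists), while the planned version 3 form is the main test itself. None of the 9 (0), 0 genes in all and 0 of the lists were called with library size only, with upper quartile scaling, with edgeR's filterByExpr, within the larger set of sample names, with either length trend removed or with the share outside exons as a covariate. At an unadjusted p under 0.05, the 9 genes then gave 2, 2, 2, 1, 1, 1 and 5. With DESeq2 size factors in edgeR 0 of the 9 and 3 of the lists were called. The median log2 fold change of all genes moved from 0.11 to at most 0.17 (library size only) and to -0.0019 with the exon length trend removed, 0.021 with the gene length trend removed and 0.011 within the larger set, so the values of the 9 genes in those fits are relative to another median.

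Leaving out 1 sample at a time gave 0 to 2 of the 9 called, 1 to 4 at an unadjusted p under 0.05, 1 to 2 without overlap, 0 to 1417 genes called in all, 0 to 14 of the lists and 0 to 3 of the 5 ratios past the adjusted threshold. With the replicate number as a block, 0 of the 9, 29 genes in all and 3 of the lists were called, and Pvrl3 had a log2 fold change of 0.93 (FDR = 0.290). Samples that share a number did not deviate together (correlations of -0.27, -0.64, 0.49 and -0.18 for numbers 1 to 4), so the numbers are not taken as pairs.

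Signs turned only for genes not called in the main test and for ratios that did not pass the adjusted threshold. Of these genes, Ctnnd2 was called in limma voom (0.67, FDR = 0.0103). Within the larger set of sample names Ablim1 was at -0.067, and the ratio of Ablim1 to Ablim3 differed by -0.16. With the gene length trend removed, Ablim1 was at -0.042, Ablim3 at -0.15, Ctnna2 at -0.34, Ctnnd2 at -0.052 and Pkp4 at -0.26. With the exon length trend removed, Ablim1 was at -0.16, Ablim3 at -0.022, Mllt4 at -0.074, Ctnna2 at -0.18 and Pkp4 at -0.16. Pvrl1 was at 0.17 with limma voom, 0.019 with library size only, 0.043 with the replicate block and 0.002 as the difference of log2 means used in the permutation test. With 1 sample left out, values ran from -0.044 to 0.26 for Ablim3, from -0.20 to 0.049 for Pvrl1, from -0.078 to 0.29 for Ctnna2, from -0.029 to 0.15 for Pkp4 and from -0.16 to 0.39 for the ratio of Ablim1 to Ablim3. The cause of these changes was not tested. Of the values for the 9 genes in the 25 alternative fits, 183 kept direction and call, 6 gained and 15 lost the call, and 21 changed sign. For 8 of the 9 genes counting error (a CV of at most 6.15% in the sample with the fewest reads) was below the spread between samples. For Pvrl1, with 90 to 229 reads per sample, it reached 10.5%, as large as the spread within shRNA (9.24%). The 5 and 4 pools limit the precision of all 9.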
